A study of Mus musculus with 6 samples.

Results

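Endothelial cells of the brain change their transcriptome along the vessel, from arteries through arterioles and precapillary segments to capillaries and veins, and the cells described here are the arteriolar and precapillary ones. They were picked by their own transcripts, in unique molecular identifier (UMI) counts of single cells. A cell was taken as endothelial with at least 6 UMIs of *Cldn5*, *Flt1*, *Ly6c1*, and *Itm2a* together, 0 UMIs of the microglial genes *Cx3cr1*, *Aif1*, and *Csf1r*, and at most 1 UMI of *Plvap*, the gene of the fenestral diaphragm. Of these cells, an arteriolar cell had at least 3 UMIs of *Hey1*, *Stmn2*, *Sema3g*, and *Unc5b* together, at most 1 UMI of the large artery genes *Gkn3*, *Cytl1*, *Fbln5*, and *Mgp*, and at most 1 UMI of the venous genes *Ackr1*, *Lcn2*, *Adgrg6*, and *Lrg1*. The rule gave 2812 cells of 22886 gated endothelial cells, 44112 cells that passed the filter of 500 to 4500 genes and under 10% mitochondrial counts, and 49059 cells deposited.

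The cells came from 3 wild-type (WT) C57BL/6J mice and 3 mice of the labelled genotype AppArcSwe, called ArcSwe mice here, which carry a human amyloid precursor protein transgene with the Arctic and Swedish mutations and form amyloid plaques and vascular amyloid. All 6 mice were untreated males of 12 months. Vessel fragments of 1 cerebral hemisphere per mouse were captured with CD31 beads, dissociated, and sequenced as 1 droplet library per mouse, and the comparison asked whether vessels with amyloid around them differ in their transcripts. The promoter of the transgene and its cell types were not given in the sources used here, and the human gene was not among the sequences named as added to the reference, so that the genotype label could not be checked from the counts. The mouse gene *App* had 1639 ± 70.6 CPM, the UMIs of a gene scaled to a total of 1000000 in each mouse and class, in arteriolar cells of the WT mice and 1649 ± 75.3 CPM in those of the ArcSwe mice (SD, n = 3 each).

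Arterioles set the resistance of the brain circulation, and their endothelium passes signals on to the smooth muscle around it. Its arterial identity depends on Notch signalling, in which the ligands Dll4, Jag1, and Jag2 activate Notch receptors on neighbouring cells and induce targets such as *Hey1*. Precapillary segments lie between the arterioles and the capillary bed, where solute carriers and transferrin receptors move nutrients and iron across the blood-brain barrier.

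The WT mice gave 652, 613, and 385 arteriolar cells and the ArcSwe mice 473, 229, and 460, in the order of the replicate numbers, which is kept below wherever 3 values are given. These cells held between 1712087 and 3888822 UMIs in each mouse. A cell had a median of 5027, 5129, and 4396 UMIs in the WT mice and 4965, 6834, and 3781.5 UMIs in the ArcSwe mice, so that the mouse with the fewest arteriolar cells, ArcSwe replicate 2, had the deepest ones. Between any 2 libraries 3 to 33 barcodes of cells that passed the filter were shared. None was arteriolar in both libraries, and 0 to 4 barcodes per pair were arteriolar in one library and also found in the other. The library of WT replicate 3 stood apart from the other WT libraries. Its arteriolar cells had a median mitochondrial share of 2.35%, against 1.42% and 1.51% in the other WT mice and 1.89%, 2.27%, and 2.51% in the ArcSwe mice, and they had the lowest level of the immediate early gene *Fos* of all 6, at 3006 CPM against 4767 to 6378 CPM in the others.

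The general endothelial genes were abundant in the arteriolar cells of every mouse, from 4405 to 5634 CPM for the tight junction gene *Cldn5*, from 812 to 1005 CPM for the adhesion molecule gene *Pecam1*, and from 602 to 709 CPM for *Cdh5*, which encodes VE-cadherin. The 4 genes of the rule were unequally spread over the cells. A UMI of *Stmn2*, a microtubule regulator, was found in 83.5% of the arteriolar cells, one of the netrin receptor gene *Unc5b* in 55.7%, one of the semaphorin gene *Sema3g* in 54.8%, and one of the Notch target *Hey1* in 44.3%. All 4 genes were detected together in 263 cells (9.35%), 3 of them in 947, 2 in 1206, and 1 alone in 396. Cells at the limit of the rule, with exactly 3 UMIs, numbered 925, and 1887 cells had 4 or more. These values describe the rule and were not tested.

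The summed arteriolar cells had 146, 142, and 162 CPM of *Hey1* in the WT mice and 121, 92.1, and 151 CPM in the ArcSwe mice, and 576, 504, and 604 CPM and 450, 380, and 612 CPM of *Stmn2*. *Sema3g* had 174, 177, and 220 CPM and 187, 156, and 182 CPM. These 3 genes overlapped between the genotypes. *Unc5b* had 183, 151, and 169 CPM in the WT mice and 197, 225, and 196 CPM in the ArcSwe mice, so that all 3 ArcSwe values were above the WT values. Since each cell had to reach 3 UMIs of the 4 genes together, their levels bear on each other within the rule and were given no test.

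*Alpl* and *Tiam2*, arteriolar markers that the rule did not use, went with the label. *Alpl*, which encodes tissue-nonspecific alkaline phosphatase, lay between 296 and 382 CPM in the arteriolar cells of the 6 mice, with a median of 313, against 73.3 to 93.4 CPM in capillary-gated cells, defined as endothelial cells with 0 UMIs of the 12 arteriolar, large artery, and venous genes. *Tiam2*, which encodes an activator of the GTPase Rac, lay between 19.4 and 42.5 CPM, against 2.06 to 4.29 CPM in capillary-gated cells. Both were higher in arteriolar cells in 6 of 6 mice, and both were higher still in large arterial-gated cells (at least 3 UMIs of the large artery genes), at 485 to 620 CPM for *Alpl* and 48.0 to 68.7 CPM for *Tiam2*. The arteriolar cells therefore lay between these 2 gates in both markers. The venous-gated cells, with at least 3 UMIs of the venous genes, numbered only 302 and had at most 29.7 CPM of *Alpl* in any mouse.

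At the limit of the rule these markers changed by degrees. The 1471 cells with 2 UMIs of the 4 genes, just outside, had 233 ± 22.1 CPM of *Alpl* (SD over 6 mice), the 925 cells with 3 UMIs, just inside, had 290 ± 45.2 CPM, and cells with 4 or more had 342 ± 35.4 CPM. The capillary carbonic anhydrase gene *Car4* went the other way, with 430 ± 111, 299 ± 43.0, and 201 ± 31.7 CPM. The limit thus lay within a continuous range.

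In the following description arteriolar and capillary-gated cells of the same mouse are compared as log2 of the ratio of CPM + 1. Of 4284 genes outside the rule with at least 50 CPM in either class, 809 were higher and 1107 lower in arteriolar cells in 6 of 6 mice, and 3271 differed by less than 1.2-fold at the mean. A mean difference of at least 2-fold in one direction in all mice was found for 72 higher and 62 lower genes. Since these cells were chosen by their transcripts, the values are given without a test. The capillary gate of 0 UMIs also took shallower cells, with a median of 2504.5 to 4729 UMIs in each mouse.

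Of the genes outside the rule that were higher in arteriolar cells, *Ccn3* had the highest ratio. This gene, which encodes a matricellular protein of the CCN family, lay between 71.2 and 139 CPM in the arteriolar cells with a median of 79.8, and between 0.908 and 4.63 CPM in the capillary-gated cells, a log2 ratio of 4.73 ± 0.61 (SD, n = 6). The calcium-binding protein gene *S100a6* had a log2 ratio of 3.85 ± 0.50, the gene of T-cadherin, *Cdh13*, one of 3.45 ± 0.37, and *Lypd1*, a gene of the Ly6 family, one of 3.36 ± 0.34. *Bmx*, which encodes an arterial tyrosine kinase, followed at 3.10 ± 0.18 and the lymphatic growth factor gene *Vegfc* at 2.47 ± 0.30. Of the remaining 15 highest genes, *Ccnd1* and *Ccnd2* encode D-type cyclins, with log2 ratios of 2.37 ± 0.27 and 2.28 ± 0.24. Each of these genes was higher in all 6 mice. Except for *Ccn3* and, in 1 mouse, *Cdh13*, the genes named so far in this paragraph were higher still in large arterial-gated cells, as with *Bmx* (385 ± 44.3 CPM, against 94.6 ± 21.1 CPM in arteriolar cells), *Vegfc* (704 ± 139 against 129 ± 38.4 CPM), and *Ccnd2* (352 ± 19.2 against 122 ± 14.5 CPM). Others of the 15 were not. *Dync1i1* and *Runx1t1* were lower in large arterial-gated than in arteriolar cells in all 6 mice, and *Rad54b* went both ways between mice.

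**Figure D1:**
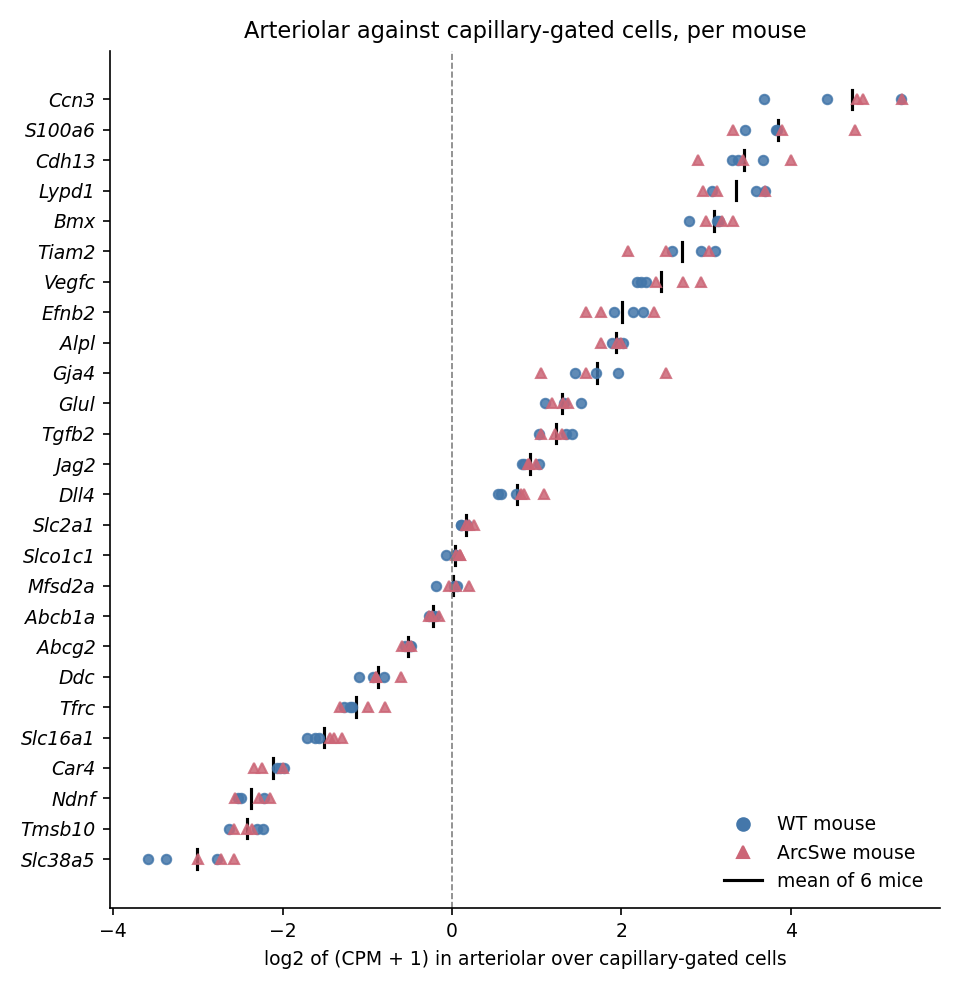
Log2 of the ratio of CPM + 1 in arteriolar over capillary-gated cells (x axis) for 26 genes (y axis), with 1 point per mouse (circles, WT; triangles, ArcSwe) and a bar at the mean of the 6 mice. *Ccn3*, at 4.73, and *Slc38a5*, at -3.01, form the ends, and the barrier genes *Slc2a1*, *Slco1c1*, and *Mfsd2a* lie near 0.

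The Notch and arterial genes differed less in size. Of 18 listed arterial and Notch genes with at least 10 CPM, 12 were higher in arteriolar cells in all 6 mice and 3 were lower, with a median log2 ratio of 0.46. The ephrin ligand gene *Efnb2* was the highest of the pathway's surface proteins at 2.00 ± 0.31, with 106 to 146 CPM against 25.3 to 36.1 CPM. Among the Notch ligands *Jag2* had a log2 ratio of 0.92 ± 0.08, *Dll4* one of 0.77 ± 0.20, and *Jag1* one of 0.32 ± 0.10. The receptors *Notch1* and *Notch4* had 0.48 ± 0.04 and 0.48 ± 0.20, and the target *Hes1*, unlike *Hey1* of the rule, was lower, at -0.24 ± 0.08. The transcription factor gene *Sox17* had 0.51 ± 0.10. The gap junction genes of arteries separated the arteriolar from the large arterial gate: *Gja4* had 14.9 ± 4.82 CPM in arteriolar and 101 ± 15.8 CPM in large arterial-gated cells, and *Gja5* had at most 1.08 CPM in any arteriolar sum and 31.9 ± 5.76 CPM in large arterial-gated cells.

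Of the 10 listed precapillary genes, 9 were higher than in capillary-gated cells in all 6 mice, with a median log2 ratio of 1.26. *Glul*, which encodes glutamine synthetase, had 1.30 ± 0.15, the growth factor gene *Tgfb2* 1.23 ± 0.16, and *Arl15*, a gene of the Arf-like GTPases, 1.12 ± 0.06. In large arterial-gated cells *Tgfb2* and *Arl15* were higher still in 6 of 6 mice, at 352 ± 63.3 against 297 ± 54.9 CPM and 2078 ± 575 against 997 ± 224 CPM, and *Glul* was lower in 5 of 6. The exception was *Ddc*, which encodes the aromatic amino acid decarboxylase, at -0.87 ± 0.16, and its order was capillary-gated (230 ± 19.2 CPM), arteriolar (126 ± 23.1 CPM), and then large arterial-gated cells (64.2 ± 10.9 CPM). The precapillary list therefore did not move as 1 group. Of 8 listed large artery genes with at least 10 CPM, 7 were higher in arteriolar than in capillary-gated cells in all 6 mice and 0 were lower, with a median log2 ratio of 1.73.

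Capillary transport genes were split. Of 15 listed genes with at least 10 CPM, 11 were lower in arteriolar cells in all 6 mice and 2 were higher, with a median log2 ratio of -0.52. *Car4* had 194 to 271 CPM against 922 to 1084 CPM in capillary-gated cells (log2 ratio -2.11 ± 0.15), the monocarboxylate transporter gene *Slc16a1* had -1.50 ± 0.16, and the transferrin receptor gene *Tfrc* had -1.13 ± 0.20. The drug efflux pump genes *Abcg2* and *Abcb1a* had -0.52 ± 0.05 and -0.22 ± 0.05. In contrast, the glucose transporter gene *Slc2a1* had 0.17 ± 0.06, the thyroid hormone carrier gene *Slco1c1* 0.04 ± 0.06, and the lipid transporter gene *Mfsd2a* 0.02 ± 0.13, with 216 to 324 CPM in arteriolar and 212 to 298 CPM in capillary-gated cells. In large arterial-gated cells *Mfsd2a* had 133 ± 30.3 CPM and in venous-gated cells 64.9 ± 15.1 CPM.

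Venous genes were the lowest group. Of 11 listed venous genes with at least 10 CPM, 10 were lower in arteriolar than in capillary-gated cells in all 6 mice and 0 were higher in all 6, with a median log2 ratio of -1.78. The interleukin-1 receptor gene *Il1r1* had 6.53 to 30.6 CPM, against 111 to 162 CPM in capillary-gated and 569 to 1179 CPM in venous-gated cells. The amino acid transporter gene *Slc38a5* had 12.1 to 34.9 CPM, against 135 to 252 CPM and 414 to 763 CPM. *Tmsb10*, which encodes an actin-sequestering thymosin, had a log2 ratio of -2.42 ± 0.15.

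Some genes were highest in the arteriolar gate itself. In 11 genes the arteriolar level was above that of each other gate in all 6 mice and at least 1.5-fold above each at the mean. *Ccn3* was one, with 46.8 ± 10.6 CPM in large arterial-gated cells, against 88.3 ± 25.3 CPM in arteriolar cells. *Slc26a10*, a gene of the SLC26 anion transporter family, had 126 to 187 CPM in arteriolar cells with a median of 174, and at most 59.9 CPM in any sum of the other gates. The retinol-binding protein receptor gene *Stra6*, the intermediate filament gene *Nes*, and the interferon-induced gene *Rsad2* were also among them, with arteriolar levels of 135 ± 38.2, 480 ± 26.3, and 147 ± 19.9 CPM. The remaining 6 were *Dync1i1*, *Gm9946*, *Tcim*, *Trib1*, *Fgf13*, and *Tnfrsf12a*. The chemokine gene *Cxcl12* was below this limit, with 3257 ± 543 CPM in arteriolar, 2454 ± 479 CPM in capillary-gated, and 1355 ± 321 CPM in large arterial-gated cells, but it too was higher in arteriolar cells in 6 of 6 mice against both.

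**Figure D2:**
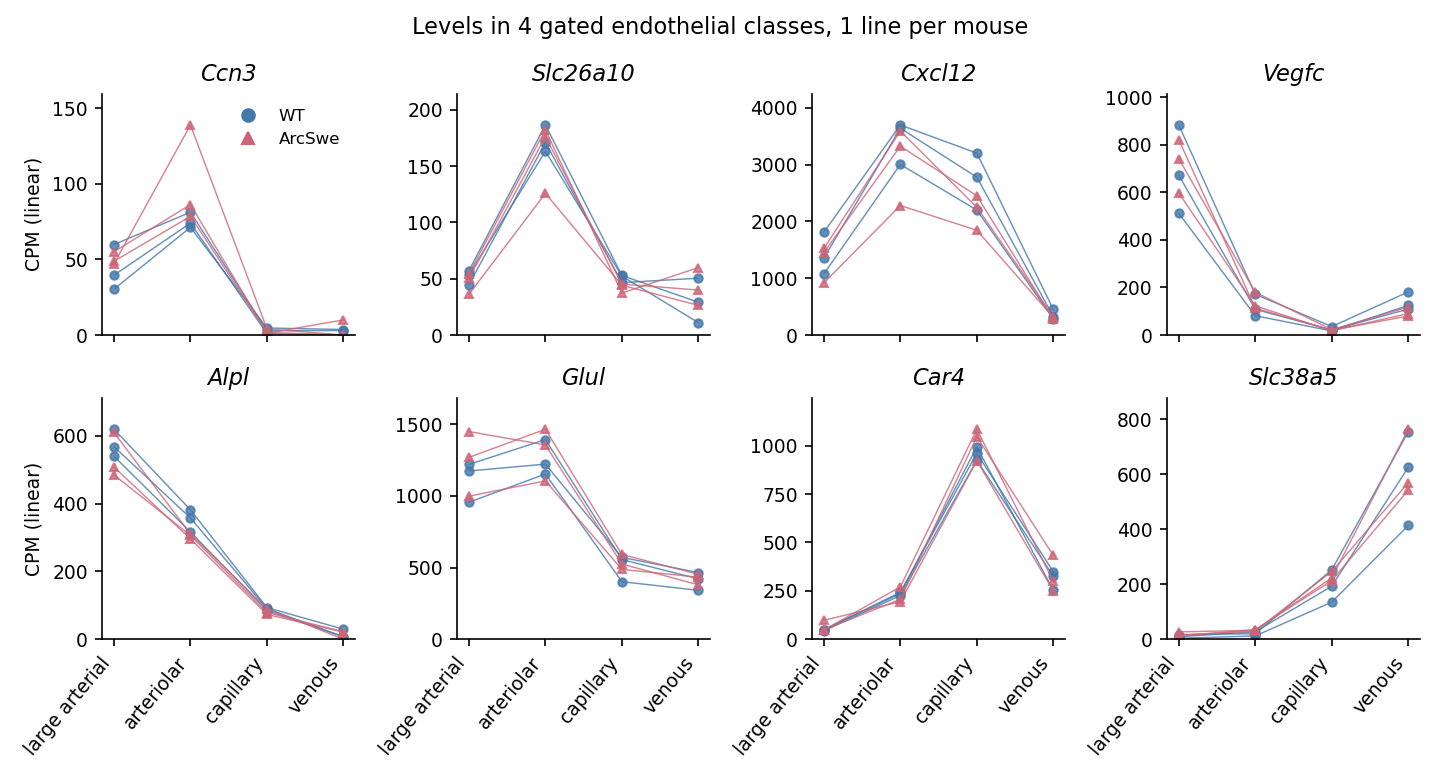
CPM (linear y axes) of 8 genes in large arterial-gated, arteriolar, capillary-gated, and venous-gated endothelial cells (x axis), with 1 line per mouse (circles, WT; triangles, ArcSwe). *Ccn3*, *Slc26a10*, and *Cxcl12* were highest in arteriolar cells, *Alpl* and *Vegfc* in large arterial-gated, *Car4* in capillary-gated, and *Slc38a5* in venous-gated cells.

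Within the arteriolar cells, *Stmn2* separated 2 ends. The 2348 cells with a UMI of *Stmn2* and the 464 cells without one were summed apart in each mouse and compared as log2 of the ratio of CPM + 5, without a test, since *Stmn2* also chose the cells. In all, 4222 genes outside the rule had at least 50 CPM on either side. At the mean, 48 of them were at least 0.5 higher and 30 at least 0.5 lower in cells with *Stmn2*. Each of these went in the same direction in all 6 mice. *S100a6* had 206 to 242 CPM in cells with *Stmn2* and 5.14 to 102 CPM in cells without it (log2 ratio 2.33 ± 1.21). *Ccn3* had a ratio of 2.19 ± 0.93 and *Cdh13* one of 1.33 ± 0.56, and *Cd9*, which encodes a tetraspanin, and *Pdgfa*, which encodes a platelet-derived growth factor, had 1.14 ± 0.25 and 1.10 ± 0.38.

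Some genes had a higher level in cells without *Stmn2*. Among them the transporter genes *Slc16a1* and *Mfsd2a* had log2 ratios of -0.73 ± 0.31 and -0.66 ± 0.20, and the decarboxylase gene *Ddc* had -0.77 ± 0.10. The cyclic GMP-dependent kinase gene *Prkg1* had 414 to 680 CPM in cells without *Stmn2* and 161 to 353 CPM in cells with it (-1.09 ± 0.20), and the connexin gene *Gja1* had -0.98 ± 0.16. *Car4* went both ways between mice, at -0.15 ± 0.31. The precapillary marker *Alpl* was higher with *Stmn2* in 6 of 6 mice but by only 0.31 ± 0.15. Part of such a split follows from the rule, since a cell without *Stmn2* needed its 3 UMIs from the other genes, so that *Unc5b* and *Hey1* were higher in it by construction.

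*Sema3g* divided the same cells in another way. The 1541 cells with it had more *Vegfc* than the 1271 without it, at 120 to 211 CPM against 25.2 to 153 CPM (log2 ratio 1.02 ± 0.58), and less *Ndnf* (-0.76 ± 0.28), *Slc16a1* (-0.65 ± 0.49), and *Car4* (-0.52 ± 0.23), each in 6 of 6 mice. Only 6 genes were at least 0.5 higher and 7 at least 0.5 lower at the mean, with the same direction in all 6 mice. The cells with *Sema3g* were also deeper, with a median of 4169.5 to 7559 UMIs in each mouse, against 3452.5 to 6133 in those without.

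The first comparison between the genotypes concerned the number of arteriolar cells. They made up 16.9%, 17.3%, and 10.6% of the gated endothelial cells in the WT mice and 10.1%, 14.4%, and 8.21% in the ArcSwe mice, so the groups overlapped. The means were 14.9% ± 3.74 and 10.9% ± 3.19 (SD, n = 3 each; exact two-sided permutation test, p = 0.2, where 3 mice against 3 allow no p under 0.1). The 95% Wilson intervals of single mice, which cover counting error only, were widest for ArcSwe replicate 2, from 12.8% to 16.3%.

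A rule of 3 UMIs admits more cells where cells are deeper, and depth differed between the mice. When each cell was first thinned to 2000 UMIs, the share was 7.48%, 7.23%, and 5.90% in the WT mice and 4.71%, 4.00%, and 5.08% in the ArcSwe mice, without overlap. The means were 6.87% ± 0.847 and 4.60% ± 0.549 (SD, n = 3 each; two-sided exact permutation, p = 0.1, which is the lowest 3 mice against 3 allow). Shallower endothelial cells left out for this numbered 291, 286, and 512 in the WT mice and 512, 68, and 1179 in the ArcSwe mice. The upper limits of the rule were also applied to the thinned counts, so that cells excluded before could enter. The gated endothelial cells thus went from 3866, 3537, and 3622 to 3839, 3511, and 3795 in the WT mice. In the ArcSwe mice they went from 4671, 1586, and 5604 to 4822, 1650, and 5687. The thinned shares are therefore not those of the same cells. Of all cells that passed the filter, arteriolar cells were 8.65% ± 3.41 in the WT mice and 6.26% ± 3.13 in the ArcSwe mice (SD, n = 3 each; exact two-sided permutation test, p = 0.4).

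**Figure D3:**
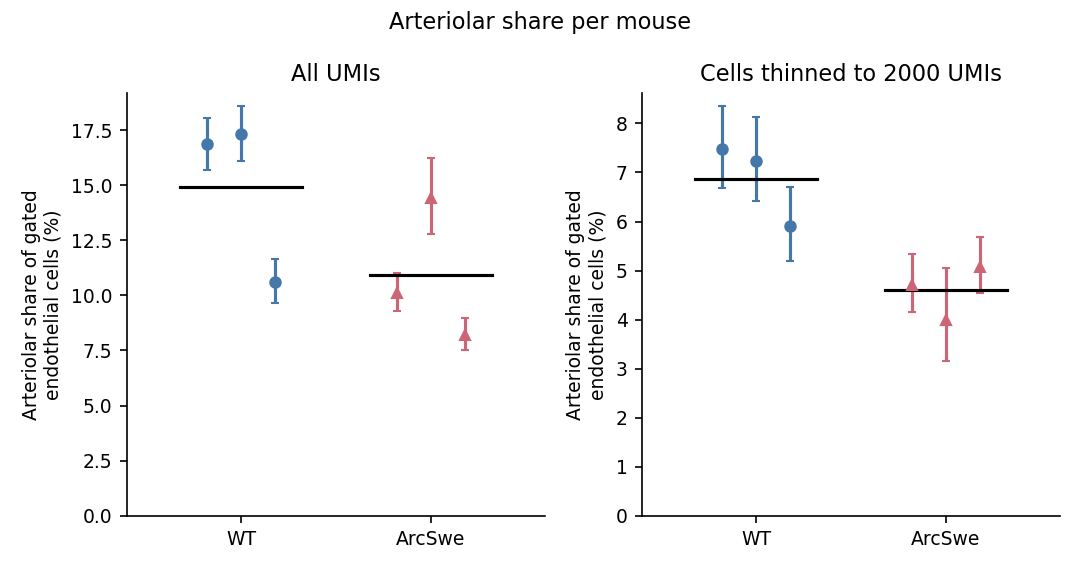
Arteriolar cells as a percent of gated endothelial cells (y axes, from 0) in each mouse, with all UMIs (left) and after thinning of each cell to 2000 UMIs (right). Vertical bars are 95% Wilson intervals and horizontal bars the means of 3 mice; the ArcSwe mice all lay below the WT mice only after thinning.

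The same genes can be read without the rule, over all gated endothelial cells, which the arteriolar genes did not choose. This reading was added after the data were seen. *Hey1* had 76.0, 77.0, and 73.6 CPM there in the WT mice and 54.4, 52.9, and 63.9 CPM in the ArcSwe mice, with no overlap. The log2 difference was -0.40 (SE 0.10, edgeR adjusted p = 0.998). *Stmn2* had 292, 248, and 278 CPM and 223, 210, and 244 CPM (log2 fold change -0.26, SE 0.09, edgeR adjusted p = 0.998), and its groups did not overlap either. The other markers overlapped between the genotypes, with log2 fold changes of -0.08 for *Sema3g*, 0.03 for *Unc5b*, -0.15 for *Alpl*, and 0.04 for *Tiam2*, at an edgeR adjusted p of 0.998 for each. The lower values of *Hey1* and *Stmn2* were thus not shared by all markers, and none of the 6 genes passed. In the genotype comparisons of arteriolar and capillary-gated cells below, 10.2% and 9.86% of all genes did not overlap, in either direction. The share over all gated endothelial cells is not given here.

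Next, the summed arteriolar counts of the 3 ArcSwe mice were compared with those of the 3 WT mice gene by gene. After a filter on low counts 10133 genes outside the rule were tested with edgeR, and 0 had an adjusted p under 0.05 (0% called). An unadjusted p under 0.05 was found for 468 genes, 273 of them higher in the ArcSwe mice (2.69%) and 195 lower (1.92%), together 4.62% of all, and the smallest adjusted p was 0.173. All 3 ArcSwe values lay above all 3 WT values for 3.76% of the genes and below them for 6.41%, together 10.2%. DESeq2, run as an alternative, called 4 genes, all higher in the ArcSwe mice, namely *Ifit3*, *Nr1d1*, *Dbp*, and *H2-Q6* (0.0395% called). Without WT replicate 3, edgeR still called 0 genes, but 1019 had an unadjusted p under 0.05. The median log2 fold change over all genes was -0.001, and 49.8% of them were above 0.

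Interferon-induced genes stood high among the genes with the smallest p. *Ifit3*, on chromosome 19 of GRCm38 from 34583531 to 34588731, encodes a protein that binds viral RNA together with its relatives. It had 54.7, 42.8, and 42.3 CPM in the WT mice and 109, 82.3, and 108 CPM in the ArcSwe mice, and its lowest ArcSwe value was above its highest WT value. The genotypes thus differed by 1.11 on the log2 scale (SE 0.15, edgeR adjusted p = 0.173, DESeq2 adjusted p = 0.000218). In capillary-gated cells the difference was 0.63 (edgeR adjusted p = 0.993).

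*Ifit2* had 25.3 ± 6.15 CPM in the WT mice and 48.5 ± 10.6 CPM in the ArcSwe mice (SD, n = 3 each), a log2 fold change of 0.94, and *Ifit1* had 94.4 ± 6.29 and 148 ± 37.0 CPM, a log2 fold change of 0.67. Neither overlapped, and the edgeR adjusted p was 0.719 for both. The genes *Gbp2* and *Gbp3*, which encode guanylate-binding GTPases that act on intracellular pathogens, had log2 fold changes of 0.65 and 0.59, and the ubiquitin ligase gene *Rnf213* one of 0.47, again without overlap and at an edgeR adjusted p of 0.719 for each. When cells were thinned before gating, *Ifit2* had 0.56 and *Rnf213* 0.31. The *Ifit* transcripts were spread over many cells. The 5 arteriolar cells with the most UMIs of *Ifit1*, *Ifit2*, and *Ifit3* held 12.3%, 9.96%, and 11.6% of them in the WT mice and 11.4%, 26.5%, and 11.9% in the ArcSwe mice.

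Of 28 listed interferon response genes tested, 26 were higher in the ArcSwe mice, 12 without overlap and 14 with an unadjusted p under 0.05, with a median log2 fold change of 0.32. Over all genes 3.76% were higher without overlap and 2.69% higher at this p. Other members were *Ifitm3*, which limits viral entry, at 0.43, and *Isg15*, which encodes a ubiquitin-like modifier, at 0.58. *Ifi27* and *Irf9* were the members below 0, at -0.02 and -0.12. In capillary-gated cells 27 of the 28 genes lay above 0, where 49.6% of all 11757 genes did, and the median was 0.27. Of these 28 genes 6 were higher without overlap (3.76% of all genes, with 6.1% lower and 9.86% either way) and 10 had an unadjusted p under 0.05 (2.56% of all higher, 1.85% lower, 4.41% together). With edgeR 0 capillary genes were called (0%) and with DESeq2 6 (0.051%). Both classes came from the same mice, and the list was chosen with results of these mice known.

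The 250 bases before the starts of *Ifit3* and *Ifit1*, from RefSeq on GRCm38.p6, are printed because both genes are named above and each holds 2 copies of the letters of the interferon-stimulated response element, taken as GAAA, any 2 bases, and GAAA. Both strands were searched, and capitals mark the matches, which here read from the opposite strand. *Ifit3* is shown from chr19:34583279-34583528 and *Ifit1* from chr19:34640639-34640888, both on the plus strand.
Ifit3: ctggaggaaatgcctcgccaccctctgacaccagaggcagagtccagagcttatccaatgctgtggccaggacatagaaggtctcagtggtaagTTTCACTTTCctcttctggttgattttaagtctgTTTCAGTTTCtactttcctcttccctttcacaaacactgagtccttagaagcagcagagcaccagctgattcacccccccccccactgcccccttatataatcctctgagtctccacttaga
Ifit1: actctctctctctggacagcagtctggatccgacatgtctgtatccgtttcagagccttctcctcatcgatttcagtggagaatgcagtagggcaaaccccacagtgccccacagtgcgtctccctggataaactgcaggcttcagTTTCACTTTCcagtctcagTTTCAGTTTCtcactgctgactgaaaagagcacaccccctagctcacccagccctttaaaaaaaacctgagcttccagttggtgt
The matches began 156 and 122 bases before the start in *Ifit3* and 104 and 85 bases before it in *Ifit1*. The same letters were found in 6 of 16 named genes searched, which were *Ifit1*, *Ifit3*, *Gbp2*, *Gbp3*, *Isg15*, and *B2m*, with 2 overlapping matches in *Gbp3*, 3 in *Isg15*, and 1 each in *Gbp2* and *B2m*, and in 978 of 32851 windows of that length over all genes (2.98%). No match was in these windows of the interferon response genes *Ifit2*, *Irf7*, and *Oasl2* or of the MHC class I genes *H2-Q4* and *H2-Q6*. The windows of *Nr1d1*, *Nr1d2*, *Dbp*, *Slc16a1*, and *Rasgrp2* held none either. A match is a description of the letters only.

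MHC class I genes, which encode the molecules that present peptides to CD8 T cells, lay to one side. Of 15 listed genes tested, 15 were higher in the ArcSwe mice, 7 without overlap and 11 with an unadjusted p under 0.05 (3.76% and 2.69% of all genes), with a median log2 fold change of 0.51. The non-classical gene *H2-Q6* had 47.6, 17.6, and 29.2 CPM in the WT mice and 95.5, 62.1, and 102 CPM in the ArcSwe mice. It had the highest ratio of the list (log2 fold change 1.48, SE 0.30, edgeR adjusted p = 0.719, DESeq2 adjusted p = 0.000975), and 1.58 in capillary-gated cells, where 15 of the 15 genes were also higher, 10 without overlap (3.76% of all genes there). The H2-Q genes are near copies of each other, and reads may be split among them.

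*H2-Q7* had a log2 fold change of 1.32 and *H2-Q4* one of 0.82, both without overlap. The light chain gene *B2m* had 898, 755, and 1142 CPM in the WT mice and 1363, 1221, and 1579 CPM in the ArcSwe mice (log2 fold change 0.61, SE 0.16, edgeR adjusted p = 0.719). The classical heavy chain genes overlapped between the genotypes, with log2 fold changes of 0.72 for *H2-K1* and 0.43 for *H2-D1*.

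RNA of other cells moved with the libraries. The summed level of 12 microglial genes in the arteriolar cells was 1036, 996, and 1812 CPM in the WT mice and 1245, 1002, and 2449 CPM in the ArcSwe mice, with *Cst3*, which endothelial cells also express, as its most abundant member (973 CPM at the mean). Without *Cst3* it was 198, 221, and 651 CPM and 374, 263, and 994 CPM. All 11 tested genes of the list were higher in the ArcSwe mice, 0 of them without overlap, and their median log2 ratio was 0.85. None of the 12 was at 0 UMIs, while the rule kept *Cx3cr1*, *Aif1*, and *Csf1r* at 0. Leaving out WT and ArcSwe replicates 3, the library of each genotype with the most of this RNA, was added after the data were seen. The median log2 fold change of the MHC class I list was then 0.39, and over all 18 alternatives that of the interferon list lay between 0.28 and 0.41. The mice left in still differed in microglial RNA, at 198 and 221 CPM without *Cst3* in the WT mice and 374 and 263 CPM in the ArcSwe mice, so that its part in these differences was not tested.

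**Figure D4:**
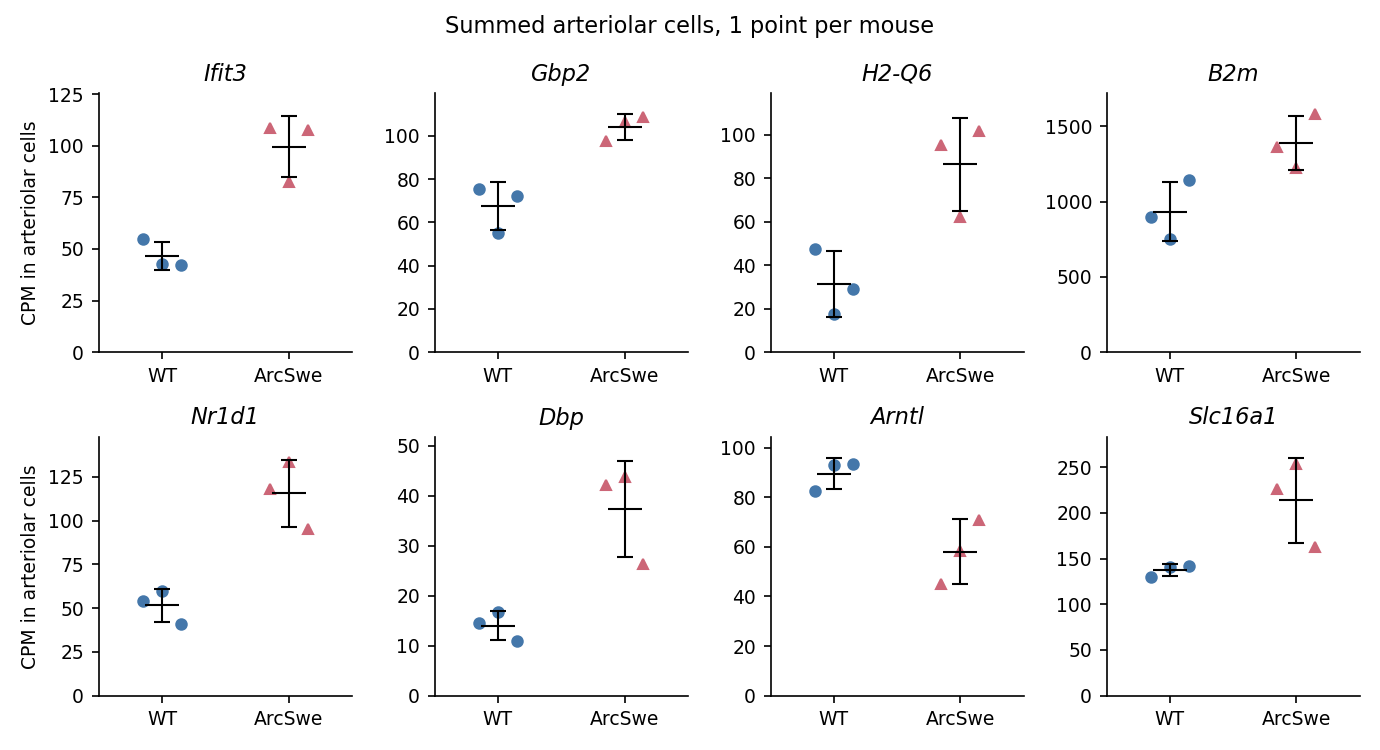
CPM (y axes, from 0) of 8 genes in the summed arteriolar cells, with 1 point per mouse (circles, WT; triangles, ArcSwe) and black bars for the mean and SD of 3 mice. In each panel the 2 genotypes do not overlap, with *Arntl* lower and the other 7 genes higher in the ArcSwe mice.

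Genes of the circadian clock formed the other group at the top. The clock is a loop in which Arntl, with its partners Clock or Npas2, activates *Nr1d1*, *Dbp*, and the *Per* genes, and Nr1d1 in turn represses *Arntl*. *Nr1d1*, on chromosome 11 from 98767932 to 98775333, had 53.8, 59.8, and 41.2 CPM in the WT mice and 118, 133, and 95.1 CPM in the ArcSwe mice. The genotypes thus differed by 1.16 on the log2 scale (SE 0.17, edgeR adjusted p = 0.173, DESeq2 adjusted p = 0.000188). The transcription factor gene *Dbp* had 14.5, 16.7, and 10.9 CPM and 42.1, 43.8, and 26.3 CPM (log2 fold change 1.39, SE 0.24, edgeR adjusted p = 0.380, DESeq2 adjusted p = 0.00789). Neither gene overlapped between the genotypes.

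On the opposite limb *Arntl* had 82.3, 93.1, and 93.2 CPM in the WT mice and 45.0, 58.2, and 71.0 CPM in the ArcSwe mice, and it was lower in all 3 (log2 fold change -0.61, SE 0.16, edgeR adjusted p = 0.719). Of 10 clock output genes tested 9 were higher, 4 without overlap (3.76% of all genes), with a median of 0.28, and the exception was *Cry1*, at -0.37, which was lower without overlap. The median was 0.19 without ArcSwe replicate 1 and 0.51 when cells were thinned before gating. *Per1*, at 0.17, overlapped. Of 5 genes of the positive limb 4 were lower, 2 without overlap (6.41% of all genes), with a median of -0.58. This median was 0.03 when cells were thinned before gating. The fit with thinned cells tested only 6646 genes, so that its medians may rest on fewer members. *Arntl* itself lay between -0.79 and -0.45 over all 18 alternatives. In capillary-gated cells the medians of the output genes and of the positive limb were 0.21 and -0.23. The times of day at which the mice were killed were not given in the sources used here, and their part in these values was not tested.

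**Figure D5:**
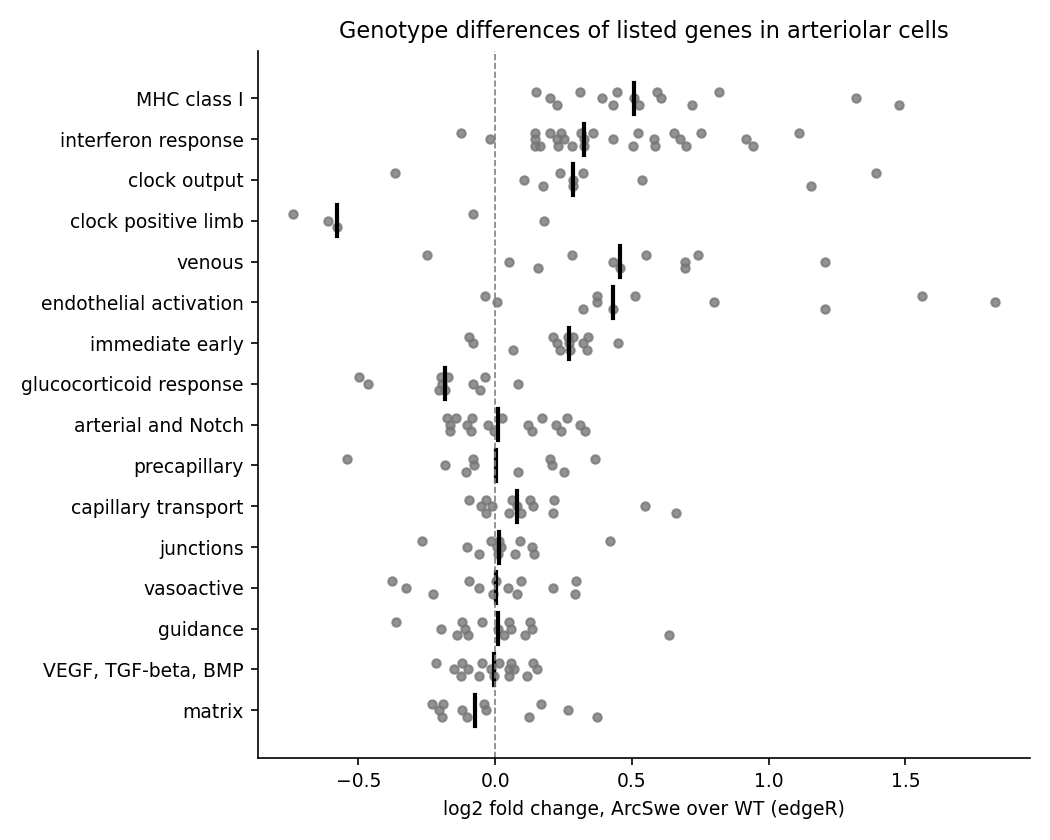
Log2 fold change of ArcSwe over WT mice in arteriolar cells (x axis) for the tested members of 16 gene lists (y axis); grey points are genes and black bars list medians. All MHC class I members lie above 0, and the arterial, precapillary, junction, and vasoactive lists are centred near 0.

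Arterial identity genes did not move to one side. Of 18 arterial and Notch genes tested 9 were higher and 9 lower, 2 without overlap in each direction (3.76% of all genes higher and 6.41% lower), with a median log2 fold change of 0.01, a lowest of -0.18 (*Notch4*) and a highest of 0.33 (*Nrarp*). Of 10 precapillary genes 5 were higher and 5 lower, with a median of 0.00. Without overlap 1 of them was higher and 2 were lower (3.76% and 6.41% of all genes). The higher one, *Ddc*, had 115, 117, and 101 CPM in the WT mice and 127, 169, and 131 CPM in the ArcSwe mice. Its log2 fold change was 0.36 (edgeR unadjusted p = 0.0228). Within that list *Lypd1* had 214, 184, and 155 CPM in the WT mice and 122, 123, and 130 CPM in the ArcSwe mice, without overlap (log2 fold change -0.54, SE 0.14, edgeR adjusted p = 0.719, and -0.31 when cells were thinned before gating). *Alpl* had 352 ± 33.2 and 304 ± 7.32 CPM (SD, n = 3 each), also without overlap (log2 fold change -0.18, edgeR adjusted p = 0.993), and *Tiam2* overlapped at 27.1 ± 8.73 and 29.6 ± 11.4 CPM.

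Junction genes had a median log2 fold change of 0.01 over 13 genes, vasoactive genes one of 0.00 over 13, guidance genes one of 0.01 over 15, and receptors and mediators of the VEGF, TGF-beta, and BMP pathways one of -0.01 over 17. None of the tested members of these 4 lists passed in edgeR after adjustment, and 2 of them, both junction genes, had an unadjusted p under 0.05 (4.62% of all genes). Flow-responsive genes had a median of 0.03 over 10 genes and large artery genes one of 0.04 over 9. In the capillary transport list 10 of 15 genes lay above 0, and the median was 0.08. *Slc16a1*, the carrier of lactate and ketone bodies, had 130, 141, and 142 CPM in the WT mice and 226, 254, and 163 CPM in the ArcSwe mice, without overlap (log2 fold change 0.66, SE 0.16, edgeR adjusted p = 0.719), but the difference was 0.11 when cells were thinned before gating. *Tfrc* had 195 ± 25.6 and 282 ± 95.6 CPM (SD, n = 3 each), and ArcSwe replicate 3, at 176 CPM, was the lowest of all 6.

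Venous and activation genes were mostly above 0. Of 11 venous genes tested 10 lay above 0, 3 without overlap, at a median log2 ratio of 0.46, and of 11 activation genes 10 were higher, 2 without overlap, with a median of 0.43. Over all genes 49.8% lay above 0 and 3.76% were higher without overlap. The leukocyte adhesion gene *Icam1*, a member of both lists, had 79.2, 105, and 36.0 CPM in the WT mice and 184, 117, and 215 CPM in the ArcSwe mice (log2 fold change 1.21, SE 0.32, edgeR adjusted p = 0.719). The lowest value was that of WT replicate 3, and without both replicates 3 the difference was 0.74. The median of the venous list was then 0.12, and that of the activation list was 0.18 without WT replicate 3 and 0.75 when cells were thinned before gating. The chemokine genes *Ccl2* and *Cxcl10* had few counts and overlapped, at 0 to 26.9 CPM.

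In the immediate early and glucocorticoid lists the median turned on 1 library. Of 14 immediate early genes 12 lay above 0, at a median log2 ratio of 0.27, which was -0.02 without WT replicate 3, the mouse with the least *Fos*. Of 11 glucocorticoid response genes 10 were lower, with a median of -0.18, which was 0.11 without WT replicate 2. Apoptosis genes had a median of -0.003 over 22 genes, 3 of them higher and 0 lower without overlap (3.76% and 6.41% of all genes), and 3 with an unadjusted p under 0.05, all higher (2.69% of all genes). These last 3 were the caspase gene *Casp12*, with 0.75 on the log2 scale (edgeR adjusted p = 0.845), the tumour necrosis factor receptor gene *Tnfrsf1a*, with 0.35 (edgeR adjusted p = 0.993), and the inflammatory caspase gene *Casp4*, with 0.87 (edgeR adjusted p = 0.993). *Casp4* had 12.0, 17.3, and 8.01 CPM in the WT mice and 31.3, 9.15, and 26.9 CPM in the ArcSwe mice, and ArcSwe replicate 2 lay within the WT values. Matrix genes had a median of -0.07 over 12, 1 of them higher and 3 lower without overlap (3.76% and 6.41% of all genes).

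Outside these lists, the genes of smallest p without overlap were led by the ubiquitin ligase gene *Fbxo30*, with 44.7 ± 1.84 CPM in the WT mice and 69.7 ± 5.31 CPM in the ArcSwe mice (SD, n = 3 each; log2 fold change 0.67). *Rasgrp2*, which encodes an activator of the GTPase Rap, was the only 1 of the 15 named in this way that was lower, with 120, 113, and 118 CPM and 85.1, 85.6, and 87.1 CPM (log2 fold change -0.42, SE 0.10, edgeR adjusted p = 0.719). *Fam118a*, *Gm12216*, and *Peli1*, a ubiquitin ligase gene of innate immune signalling, had 0.56, 0.96, and 0.42, and *Fam118a* had 0.22 when cells were thinned before gating. *Cyp26b1*, the enzyme that degrades retinoic acid, had 7.69, 9.71, and 10.3 CPM and 1.61, 4.57, and 2.15 CPM without overlap (log2 fold change -1.77, SE 0.40, edgeR adjusted p = 0.719), from 27, 32, and 18 UMIs and 4, 7, and 4 UMIs. *Ptchd1* and *Gm15155* had too few counts to be tested, and human *NOTCH3*, which was added to the reference, had 0 UMIs in all mice.

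Finally, it was asked whether the genotype difference itself differed between arteriolar and capillary-gated cells, in a fit over both classes with the mouse as a block. edgeR called 1 of the 11415 genes at an adjusted p under 0.05 (0.00876%), and 577 had an unadjusted p under 0.05 (5.05%). This gene was *Vtn*, which encodes vitronectin and is a pericyte gene in the brain. Its arteriolar sums were 11, 5, and 8 UMIs in the WT mice and 116, 4, and 172 UMIs in the ArcSwe mice, and the 5 cells with the most held 95.7% of the UMIs of ArcSwe replicate 1 and 85.5% of those of replicate 3. In the same libraries the summed level of 8 pericyte genes was 118 and 293 CPM, against 24.8 to 44.6 CPM in the other 4, with *Rgs5* as the most abundant gene and 0 genes at 0 UMIs. Cells with 2 or more UMIs of mural genes were then left out of both classes, 135 of them arteriolar. These genes were *Acta2*, *Tagln*, *Myh11*, *Rgs5*, *Kcnj8*, and *Vtn* itself. *Vtn* was not called in this fit, which follows by construction, since *Vtn* chose the cells left out. The 4 genes called were *Ptgs2*, *Pbx3*, *Icam1*, and *Irf1*.

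Apart from *Vtn*, the difference between the classes was not past the threshold in the fit over all cells and mice. The interaction had an adjusted p of 0.676 for *Ifit3*, with a log2 difference of 0.49, one of 1.00 for *Nr1d1* (0.24) and one of 1.00 for *H2-Q6* (-0.11), all in edgeR. The smallest among the genes named without overlap were 0.177 for *Peli1* (0.34) and 0.180 for *Icam1* (0.75). *Icam1* was called without cells with mural UMIs, without WT replicate 2, without ArcSwe replicate 1, and with the replicate number as a block.

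Other RNA in the arteriolar cells was measured in the same way. The summed level of 8 smooth muscle genes was 453, 145, and 377 CPM in the WT mice and 346, 47.0, and 489 CPM in the ArcSwe mice, led by *Acta2*. Haemoglobin and other erythroid genes summed to 17365, 13735, and 6435 CPM and 19826, 11661, and 10496 CPM, led by *Hbb-bs*, and overlapped. Lymphoid genes were low, at 11.4, 5.16, and 4.57 CPM and 17.7, 11.8, and 22.6 CPM, led by *Cd79a*, and did not overlap. Neuronal genes were at 9.15 to 16.1 CPM and 18.3 to 22.9 CPM without overlap, led by *Nrgn*, with *Rbfox3* at 0 UMIs. Oligodendrocyte genes were at 2.86 to 4.27 CPM and 4.82 to 5.88 CPM, also without overlap, fibroblast genes summed to at most 2.69 CPM in any mouse, and astrocyte genes were highest in WT replicate 3, at 141 CPM. The part of these transcripts in the differences above was not tested.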

How the data were processed

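The authors deposited raw UMI counts per gene and cell, 1 matrix of called cells per mouse, without normalization. Per the submitters' notes and methods, reads were processed in Cell Ranger 7.0.0, and the reference was mm10, to which *Clec7a* and human *NOTCH3* had been added. Brain vessel cells of 3 WT and 3 ArcSwe mice were measured. All 6 libraries were used and no sample was left out. Cells were filtered and gated on raw UMIs as stated with the results, and no doublet caller was run. Counts were summed per mouse and class, so that the mouse was the replicate. Ribosomal protein, mitochondrial, pseudogene, and Rik genes (9.70% to 10.8% of the arteriolar UMIs) were removed, pseudogenes by gene ID in GENCODE M21, and CPM were computed over the remaining genes. Sums were filtered with filterByExpr, scaled with TMM, and entered into the quasi-likelihood test of edgeR 4.0.16 (R 4.3.3; glmQLFit, glmQLFTest) in a model of genotype alone, and p-values were adjusted after Benjamini-Hochberg over all fitted genes. Genes of the rule were counted in no call. Shares were compared with exact permutation tests (scipy 1.17.1). The fit was also run on simulated counts, but the outcome is not given here and backs no result above. The summed arteriolar UMIs, 1712087 to 3888822 per mouse, limit the precision for low genes. Alternatives used DESeq2 1.42.0, other filters, gates, and scalings, thinning to 2000 UMIs (seed 1), and fits without each mouse.

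The members and gene lists were chosen with earlier results of these data known. Genes were named by a rule: since 0 genes passed, the 15 of smallest unadjusted p among those with at least 20 CPM and no overlap; list members that passed, of which there were 0, and abundant members of each list; and the rule's genes, *Alpl*, *Tiam2*, *App*, *Casp4*, *H2-Q6*, *B2m*, *Nr1d1*, *Dbp*, *Arntl*, *Ptchd1*, and *Gm15155*. The profile named the 15 highest and 10 lowest genes of at least 50 CPM and members of 5 zonation lists. Other named genes were picked later, with their values known. Labels do not tie the mice to litters or days.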

Additional observations from a re-analysis of the deposited data

Results flagged for a closer look

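The genotype difference of *Vtn* differed between arteriolar and capillary-gated cells by 4.14 on the log2 scale (standard error 0.63, adjusted p = 0.0146 in edgeR, from 3 mice in each group), in a test of the difference itself. The excess lay in ArcSwe replicates 1 and 3, while replicate 2, with 4 UMIs, was at the WT level. *Vtn* was not called without ArcSwe replicate 3, without WT replicate 1, or without both replicates 3. It was also not called with cells thinned before gating, or with a gate of at least 2 or at least 4 UMIs. Its loss without cells with mural UMIs tells nothing more, since *Vtn* was one of the mural genes that chose those cells.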

How the results depend on the processing

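Over 18 alternatives, the 41 named genes gave 726 log2 fold changes, of which 682 kept their direction and stayed above an adjusted p of 0.05, 41 kept their direction and passed it, and 3 reversed. Of these passes, 4 came from DESeq2, 6 from the replicate block, and 3 from leaving out both libraries richest in microglial RNA. All others came from the fit without a filter on low counts. Its smallest edgeR adjusted p was 3.6e-50, and its calls are given only as an alternative. When 1 mouse was left out, *App* lay between -0.0264 (without WT replicate 3) and 0.0674 and was also reversed without ArcSwe replicate 2, and *Tiam2* lay between -0.132 (without ArcSwe replicate 3) and 0.401. The count of genes called between the genotypes in arteriolar cells was 0 in edgeR and stayed 0 with RLE size factors, a count filter of 10 in 3 mice, the removed genes kept, the stricter cell filter, cells with mural UMIs left out, and a gate of at least 2 UMIs. It was 4 with DESeq2, 134 without a filter on low counts (100 of them tested in the filtered fit), 2 with cells thinned before gating (*Zswim4* and *Ccl4*), 1 with a gate of at least 4 UMIs (*Igkc*), 3 without both libraries richest in microglial RNA (*Slc16a1*, *Dbp*, and *Nr1d1*), and from 0 to 1 when 1 mouse was left out, where *Vtn* was called without ArcSwe replicate 2. In capillary-gated cells it was 0, but 6 with DESeq2 and 5 without a filter. For the interaction it was 1, and 33 without a filter, 4 without cells with mural UMIs, 0 with cells thinned before gating, with a gate of at least 4 UMIs, with a gate of at least 2 UMIs, and without both libraries richest in microglial RNA, and from 0 to 5 when 1 mouse was left out, 0 being without ArcSwe replicate 3 and 5 without WT replicate 3. The cause was not tested. The difference in the arteriolar share, -4.02 percentage points, lay between -5.66 and -2.27 over the other settings of gate, filter, and denominator and between -6.17 (without WT replicate 3) and -2.66 (without ArcSwe replicate 3) when 1 mouse was left out.

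The genotypes share replicate numbers, but the labels do not say whether these pair the mice, and the main fits did not treat them as pairs. Deviations from the group means of same-numbered mice correlated at 0.337, -0.049, and 0.246 over 5530 genes. Replicates 1 and 3 of each genotype correlated best with their own number, and replicates 2 did not. Whether same-numbered mice were handled together was not tested. With the number as a replicate block, edgeR called 6 genes in arteriolar cells (*Dbp*, *Nr1d1*, *Ifit3*, *H2-Q4*, *H2-Q6*, and *H2-Q7*), 1 in capillary-gated cells (*H2-Q6*), and 7 for the interaction, and the share differed by the same -4.02 percentage points (exact sign-flip permutation test over 3 pairs, p = 0.25, the smallest possible). At this depth, differences in genes with few counts, such as *Cyp26b1* and *Cxcl10*, rest on few UMIs.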
